A study of Mus musculus with 14 samples.

Results

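The genes described here serve protein folding, quality control and disposal in the endoplasmic reticulum (ER) of mouse mast cells. They are 37 genes of 16012 tested, taken as a list by name and found on the arrays by the gene name of their probes. Of the 37, 34 were found under the symbol used here and 3 under an older name (Dnajc3 as Dnajc3a, Manf as Armet, Sec62 as Tloc1), and Selk is Selenok in RefSeq. By role, 10 are members or partners of the Hsp70 and Hsp90 chaperone systems, 2 are lectin chaperones, 5 are protein disulfide isomerases, 4 are stress sensors or the factor they act through, 11 belong to ER-associated degradation and 5 to translocation into the ER.

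RNA was measured on 14 one-colour Agilent arrays in 4 groups, all from 1 strain, named from C57BL/6 and 129Sv-N3. Wild-type (Pla2g3 wild-type) bone marrow-derived mast cells (BMMCs) filled 3 arrays and Pla2g3 knockout BMMCs 4. BMMCs are mast cells of an immature kind, raised from marrow over 4 to 6 weeks in medium with IL-3, and over 97% carried Kit and FcεRIα. Wild-type cocultured cells filled 4 arrays and knockout cocultured cells 3. These were BMMCs kept for 4 days on Swiss 3T3 cells, a mouse fibroblast line, with stem cell factor at 100 ng/ml, and the nonadherent cells collected after reseeding were over 99% pure. Pla2g3 encodes the group III secreted phospholipase A2, and the study asked how its loss bears on maturation of mast cells by fibroblasts. The labels do not say which replicates came from separate mice, so the spread behind each p-value is that between these samples and may be technical.

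Secreted and membrane proteins enter the ER through the Sec61 channel, fold there with the help of chaperones such as BiP (Hspa5), and acquire disulfide bonds from protein disulfide isomerases. Proteins that fail to fold are drawn back into the cytosol by the Hrd1, Sel1l and Derlin machinery and the ATPase Vcp, and are degraded by the proteasome. When unfolded proteins accumulate, the sensors Ern1 (IRE1), Eif2ak3 (PERK) and Atf6 start the unfolded protein response, in which cleaved Atf6 and spliced Xbp1 raise many of these same genes. Mast cells make and store large amounts of secreted granule proteins, which pass through this compartment.

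Each level is a log2 signal after subtraction of its array's 75th percentile (0 marks that percentile), and differences are differences of those log2 levels. The 75th percentile lay at 69.4 to 176 signal units and 42.6% to 55.9% of probes were well above background. Of the 37 genes, 36 were well above background on every array with a value. The exception was Derl3, a Derlin found mainly in secretory cells, which was well above background on 3 arrays. Across genes, arrays of 1 group correlated at 0.938 or more in BMMCs and at 0.899 or more after coculture. The arrays lay on 4 slides, and slide 4, scanned on another day, held wild-type cocultured 3, knockout cocultured 3 and knockout BMMC 4. On the ER genes the first 2 of these stood apart from the other arrays of their groups, as given below, so each comparison is given with all arrays and again without those 2 (3 wild-type and 2 knockout cocultured arrays left). Those 2 were left out because they stood apart on these same genes, so the calls and p-values of the smaller set only describe the arrays that remain and are no support for a difference. The Pla2g3 probe read −4.69 to −2.95 in BMMCs labelled wild-type and −1.96 to −1.31 in those labelled knockout. After coculture it read −4.33 to −2.22 (wild-type) and −3.21 to −1.78 (knockout). It was well above background on 1 of 3 wild-type BMMC arrays, on 2 of 4 wild-type cocultured arrays and on every knockout array. It was thus higher in BMMCs labelled knockout. Which part of the gene was deleted is not given in the sources used here, so this probe does not check the labels, which are used as given.

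Promoters of the list were examined for the sequence that the unfolded protein response acts through. The ER stress response element (ERSE), bound by NF-Y and Atf6, is CCAAT and CCACG with 9 bases of any kind between them, and ERSE-II is ATTGG and CCACG with 1 base between them. Both were searched on both strands in the 250 bases before the start of each gene in RefSeq (GRCm38.p6), which gave a promoter for 32 of the 37 genes and not for Hyou1, Manf, Atf6, Derl1 and Sec61a1. ERSE was in 9 of 32 (28.1%) against 35 of 27025 genes with a promoter (0.13%), and ERSE-II in 1 of 32 (3.12%) against 10 genes (0.037%). All are shown here but Derl3 and Dnajc3. Capitals mark the outer blocks of the element, which read CGTGG and ATTGG where it lies on the opposite strand, and every stretch is printed 5′ to 3′ along the gene.
Hspa5, chr2:34772010-34772058, plus strand: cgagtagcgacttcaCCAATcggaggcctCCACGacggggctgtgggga
Hsp90b1, chr10:86705518-86705671, minus strand: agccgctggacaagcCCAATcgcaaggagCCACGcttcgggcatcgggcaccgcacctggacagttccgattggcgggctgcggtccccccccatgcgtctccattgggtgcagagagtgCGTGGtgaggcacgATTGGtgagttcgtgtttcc
Creld2, chr15:88819505-88819553, plus strand: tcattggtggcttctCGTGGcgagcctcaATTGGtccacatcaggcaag
Calr, chr8:84847060-84847108, minus strand: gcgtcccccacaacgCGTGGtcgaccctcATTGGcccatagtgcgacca
Canx, chr11:50325785-50325833, minus strand: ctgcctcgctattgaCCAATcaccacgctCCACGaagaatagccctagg
Pdia6, chr12:17266476-17266524, plus strand: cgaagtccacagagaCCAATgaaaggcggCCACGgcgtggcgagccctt
Syvn1, chr19:6046517-6046565, plus strand: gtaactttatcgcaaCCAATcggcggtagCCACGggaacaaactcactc
Herpud1 (ERSE-II), chr8:94386362-94386402, plus strand: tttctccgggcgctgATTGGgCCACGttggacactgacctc

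Hsp90b1 held 2 copies of ERSE, on opposite strands. The shorter core TGACGTG, to which Xbp1 and Atf6 bind, was in the promoters of Hspa5, Txndc5 and Vcp, 9.38% of the 32 members with a promoter against 1.85% of all genes with one. A match is a description of these letters and not a shown binding site. The list was taken by name and holds many genes that this response raises. These shares thus describe the list and say nothing of the shifts on these arrays.

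Coculture of wild-type cells changed 3 of the 37 ER genes with all 14 arrays, 2 upwards and 1 downwards, against 12.9% of all genes tested (6.02% higher and 6.87% lower). Herpud1, a stress-induced membrane protein of the degradation machinery, and Ern1, the sensor kinase and RNase that splices Xbp1 mRNA, rose. Eif2ak3, the kinase that slows translation through eIF2α, fell. The median difference over the list was −0.19, against −0.06 over all genes, and ran from −0.34 without wild-type cocultured 3 to −0.11 without wild-type cocultured 2 or 4. In coculture of knockout cells 3 of 37 rose and 0 fell, against 14.3% of all genes (7.78% higher and 6.5% lower), and these were Herpud1, Derl1 and Vcp. Derl1 is a Derlin of the retrotranslocation channel, and Vcp (p97) pulls ubiquitinated proteins out of the ER membrane. The median over the list was 0.23, against 0.07 over all genes, and it fell below 0 under quantile normalization (−0.06) and normexp background correction (−0.21). Without knockout cocultured 1, 2 and 3 in turn it was 0.07, 0.12 and 0.615. Cocultured and BMMC arrays did not overlap for 4 of 37 ER genes in wild-type cells (Ern1, Herpud1 and Vcp higher, Eif2ak3 lower), against 25.5% of all genes, and for 8 of 37 in knockout cells (7 higher, Edem2 lower), against 28.1%. All calls are from limma's moderated test with Benjamini-Hochberg adjustment over all genes, called at an adjusted p under 0.05.

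**Figure D1:**
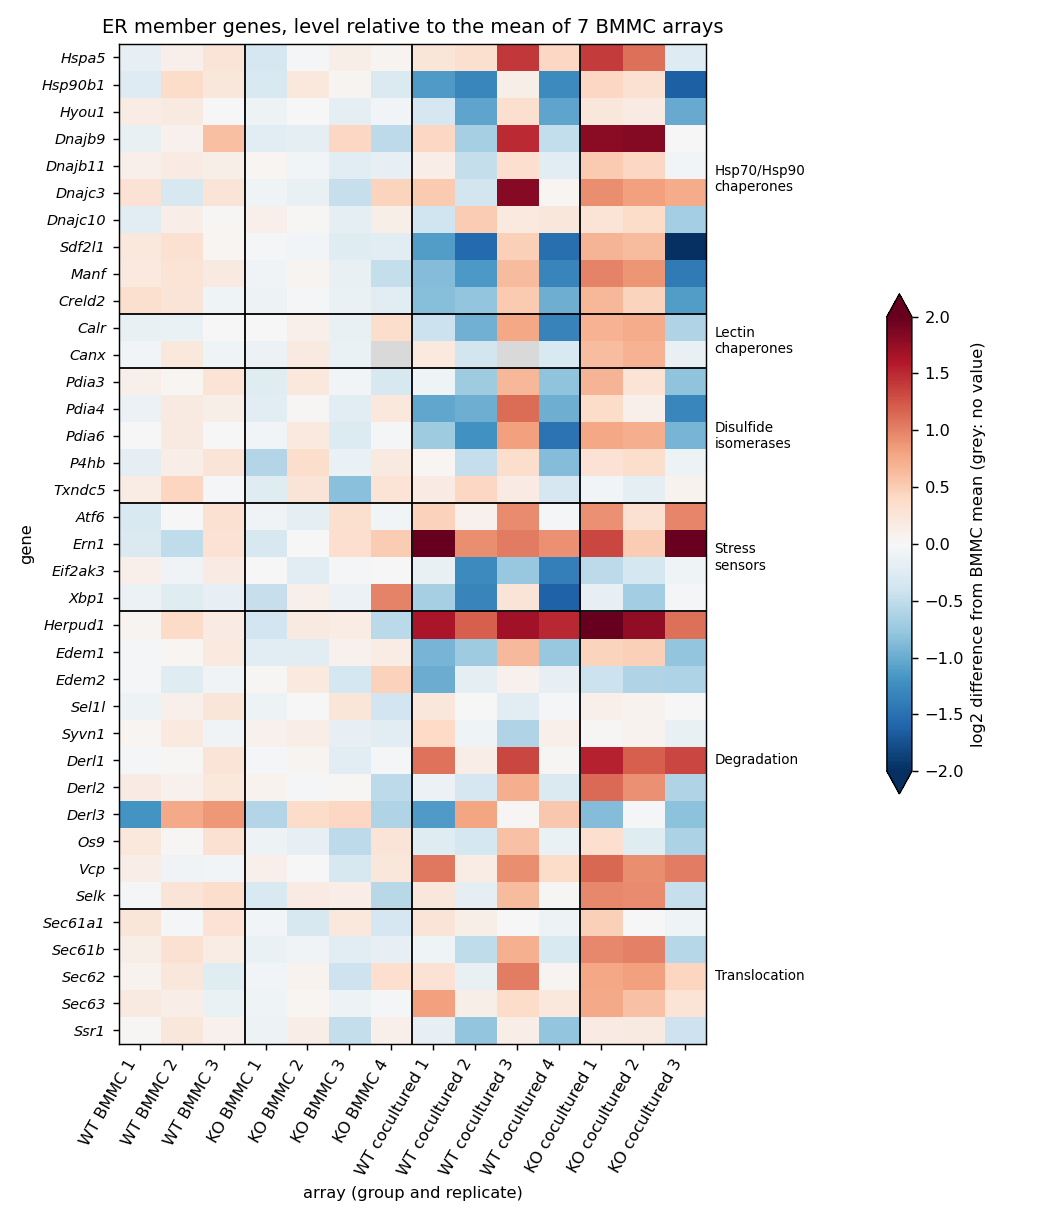
Each row is 1 of the 37 ER genes and each column 1 of the 14 arrays, and colour gives the log2 level minus the mean of the 7 BMMC arrays for that gene (red higher, blue lower, grey no value, colour limits at −2 and 2). Wild-type cocultured 3 and knockout cocultured 1 and 2 are red in most chaperone rows, and the other 4 cocultured arrays are mostly blue there. Under normexp correction of all spots, not drawn here, the median over all 37 genes on knockout cocultured 2 was −0.67. Once flagged spots were left out of that correction it was 0.34 over 35 genes. Derl3, in the degradation block, was well above background on 3 arrays.

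Without wild-type cocultured 3 and knockout cocultured 3 the counts were larger. In wild-type cells 2 rose and 11 fell, against 23.6% of all genes called, 9.64% higher and 14% lower. Under median scaling of the same arrays 0 rose and 11 fell. In knockout cells 17 rose and 0 fell, against 30.9% of all genes called, 19.1% higher and 11.8% lower. Under normexp correction of the same arrays 3 rose and 2 fell. This was a smaller share than that of all genes called under the same correction, and 30.9% is the share without it. Once spots that the scanner software flagged, for themselves or for their local background, were left out of that correction, 12 rose and 0 fell. Counts over all genes in each setting are given further below. Without these 2 arrays and with no other change, the 3 calls of each genotype with all arrays were called too.

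The cocultured arrays can be ordered by how many ER genes lay outside the range of all 7 BMMC arrays. On knockout cocultured 1, 28 of 37 lay above every BMMC array and 2 below. On wild-type cocultured 3, 25 of the 36 with a value lay above and 2 below, and on knockout cocultured 2, 22 lay above and 3 below. These 3 arrays carried high ER chaperone levels. The count above and below was 8 and 12 on wild-type cocultured 1, 4 and 17 on wild-type cocultured 2, 6 and 17 on wild-type cocultured 4, and 8 and 16 on knockout cocultured 3. So 1 array of each genotype went with arrays of the other genotype, and both lay on slide 4. Whether the labels of these 2 arrays are exchanged was not tested, and every comparison that uses them rests on the labels as given.

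Among the chaperones, Hspa5 encodes BiP, the Hsp70 of the ER lumen (probe at 34631630 to 34631689 of chromosome 2, mm9). Its level was 5.65, 5.91 and 6.07 on wild-type BMMC arrays 1 to 3 and 5.47, 5.78, 5.93 and 5.86 on knockout BMMC arrays 1 to 4. It was 6.05, 6.13, 7.23 and 6.23 on wild-type cocultured arrays 1 to 4 and 7.20, 6.92 and 5.55 on knockout cocultured arrays 1 to 3. The highest 3 values were wild-type cocultured 3 and knockout cocultured 1 and 2, and cocultured and BMMC arrays overlapped in both genotypes. The coculture difference was 0.53 ± 0.39 (SE) in wild-type cells (adjusted p = 0.435) and 0.80 ± 0.39 in knockout cells (adjusted p = 0.191). Without the 2 slide 4 arrays it was 0.26 ± 0.19 (adjusted p = 0.377) and 1.30 ± 0.20 (2.46-fold, adjusted p = 0.00136).

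Hsp90b1, the Hsp90 of the ER (GRP94), went lower on part of the arrays. It read 6.24, 6.87 and 6.73 in wild-type BMMCs, 6.20, 6.71, 6.55 and 6.21 in knockout BMMCs, 5.37, 5.20, 6.62 and 5.22 in wild-type cocultured cells and 6.91, 6.81 and 4.86 in knockout cocultured cells. Wild-type cocultured 1, 2 and 4 and knockout cocultured 3 lay below every BMMC array. With all arrays the wild-type difference was −1.01 ± 0.48 (adjusted p = 0.204). Without the slide 4 pair Hsp90b1 fell in wild-type cells by 1.35 (SE 0.22, adjusted p = 0.00149) and read 0.44 ± 0.23 in knockout cells (adjusted p = 0.167).

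Sdf2l1, a partner of the DnaJ proteins of the ER (chromosome 16, 17130426 to 17130485, mm9), had a wider range over the 14 arrays than any other chaperone on the list. It stood at 3.27, 3.37 and 3.10 in wild-type BMMCs and 3.03, 3.01, 2.81 and 2.85 in knockout BMMCs. After coculture it stood at 1.95, 1.52, 3.55 and 1.55 in wild-type and 3.75, 3.70 and 0.53 in knockout cells. Within each cocultured group 1 array was thus far from the rest, at the high end in wild-type cells and the low end in knockout cells. The differences with all arrays, −1.11 ± 0.68 and −0.27 ± 0.68, did not pass (adjusted p = 0.339 and 0.841). Without both arrays Sdf2l1 fell in wild-type cells by 1.58 (SE 0.18, adjusted p = 0.000188) and rose in knockout cells by 0.80 (SE 0.19, adjusted p = 0.00986).

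Manf, a secreted ER factor induced by stress (chromosome 9, 106791278 to 106791337, mm9), followed the same order of arrays. Its levels were 4.29, 4.37 and 4.28 in wild-type BMMCs, 4.03, 4.15, 3.94 and 3.63 in knockout BMMCs, 3.23, 2.95, 4.73 and 2.77 in wild-type cocultured cells and 5.10, 4.98 and 2.69 in knockout cocultured cells. Wild-type cocultured 1, 2 and 4 and knockout cocultured 3 were below all BMMC arrays and the other 3 above them. Its differences with all arrays were −0.90 ± 0.56 and 0.32 ± 0.56 (adjusted p = 0.345 and 0.76). Without the pair they were −1.33 ± 0.19 (adjusted p = 0.000793) and 1.10 ± 0.20 (adjusted p = 0.00303).

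Creld2, a stress-induced protein with disulfide isomerase activity, read 4.73, 4.68 and 4.34 in wild-type BMMCs, 4.31, 4.40, 4.28 and 4.20 in knockout BMMCs, 3.56, 3.63, 4.94 and 3.44 in wild-type cocultured cells and 5.09, 4.86 and 3.30 in knockout cocultured cells. It too split each cocultured group around the BMMC arrays. Hyou1, the large Hsp70 relative that exchanges nucleotide on BiP, ranged from 2.19 to 3.56 in wild-type and 2.22 to 3.47 in knockout cocultured cells, against 3.05 to 3.41 in all BMMCs. Without the pair Creld2 fell by 1.04 (adjusted p = 0.00172) and Hyou1 by 0.92 (adjusted p = 0.009) in wild-type cells, and Creld2 rose by 0.68 in knockout cells (adjusted p = 0.0173).

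Of the DnaJ co-chaperones, which act with BiP, Dnajb9, Dnajb11 and Dnajc3 rose in knockout cells without the pair. Dnajb9 (ERdj4) read 1.48, 1.71 and 2.23 in wild-type BMMCs, 1.40, 1.45, 2.04 and 1.10 in knockout BMMCs, 2.04, 0.96, 3.13 and 1.13 in wild-type cocultured cells and 3.43, 3.46 and 1.64 in knockout cocultured cells. Its 3 highest arrays were again wild-type cocultured 3 and knockout cocultured 1 and 2. The knockout difference was 1.34 ± 0.54 with all arrays (adjusted p = 0.12) and 1.95 ± 0.35 without the pair (3.86-fold, adjusted p = 0.00287), while the wild-type differences, 0.01 ± 0.54 and −0.43 ± 0.33, did not pass (adjusted p = 0.995 and 0.408). Dnajc3 (p58IPK) was the one chaperone whose 3 knockout cocultured arrays, 2.69, 2.56 and 2.49, all lay above the 4 knockout BMMC arrays, which ran from 1.29 to 2.20. Its difference of 0.89 ± 0.43 did not pass with all arrays (adjusted p = 0.184) and passed without the pair at 0.93 ± 0.31 (adjusted p = 0.0433). Dnajb11 rose by 0.57 ± 0.19 in knockout cells without the pair (adjusted p = 0.0479). Dnajc10, a DnaJ protein that reduces disulfides, passed in no comparison, with or without the pair.

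**Figure D2:**
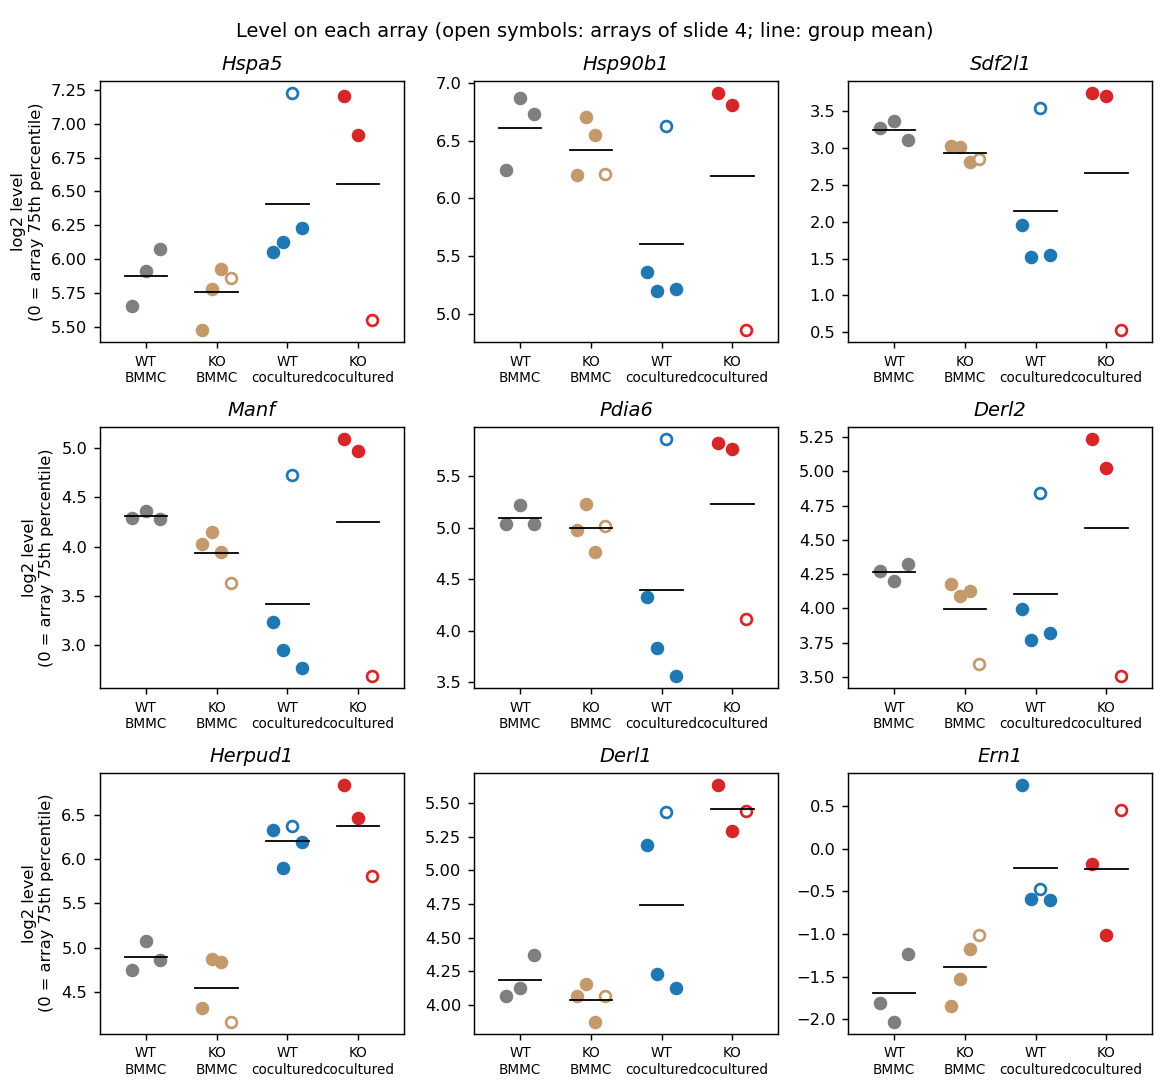
Each panel gives the log2 level of 1 gene (0 is the 75th percentile of the array) on every array by group, with open symbols for arrays of slide 4 and a line at the group mean. In Hsp90b1, Sdf2l1, Manf, Pdia6 and Derl2 the open wild-type cocultured symbol lies with the filled knockout cocultured symbols and the open knockout cocultured symbol with the filled wild-type ones, while in Herpud1 every cocultured array lies above every BMMC array.

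The lectin chaperones bind sugar chains on new glycoproteins. Calr (calreticulin) read 3.41, 3.44 and 3.55 in wild-type BMMCs, 3.57, 3.66, 3.41 and 3.91 in knockout BMMCs, 3.13, 2.60, 4.34 and 2.23 in wild-type cocultured cells and 4.26, 4.30 and 2.96 in knockout cocultured cells. Cocultured arrays thus lay on both sides of the BMMC arrays in both genotypes. The wild-type difference was −0.39 ± 0.45 (adjusted p = 0.661), and without the pair Calr fell by 0.81 (SE 0.23, adjusted p = 0.0284). Canx, its membrane-bound relative calnexin, had no value on knockout BMMC 4 and wild-type cocultured 3, where its spot was flagged, so the fit left those out. It read 5.52, 5.79 and 5.49 in wild-type BMMCs, 5.45, 5.76 and 5.43 in knockout BMMCs, 5.77, 5.21 and 5.28 in wild-type cocultured cells and 6.19, 6.26 and 5.42 in knockout cocultured cells. The difference in wild-type cells, −0.19 ± 0.29 (adjusted p = 0.762), turned to 0.19 under normexp correction, and in knockout cells 0.41 ± 0.29 did not pass (adjusted p = 0.382). Without the pair Canx rose in knockout cells by 0.68 ± 0.23, with an adjusted p of 0.0499.

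Of the 5 disulfide isomerases 0 passed with all arrays in either genotype. Pdia6 (P5) read 5.04, 5.22 and 5.04 in wild-type BMMCs, 4.98, 5.23, 4.76 and 5.02 in knockout BMMCs, 4.32, 3.83, 5.87 and 3.56 in wild-type cocultured cells and 5.82, 5.77 and 4.11 in knockout cocultured cells. Pdia4 (ERp72) stayed within 1.70 to 2.13 in all BMMCs and read 0.87, 0.94, 3.02 and 0.93 in wild-type and 2.27, 2.02 and 0.61 in knockout cocultured cells. In both genes wild-type cocultured 1, 2 and 4 and knockout cocultured 3 were below every BMMC array. Without the pair Pdia6 fell by 1.19 (SE 0.22, adjusted p = 0.00297) and Pdia4 by 1.06 (SE 0.18, adjusted p = 0.00208) in wild-type cells, and Pdia6 rose by 0.80 (SE 0.23, adjusted p = 0.0238) in knockout cells. The probes of Pdia6 disagreed in knockout cells, where with all arrays this one differed by 0.24 ± 0.51 and the 3 others by −0.60, −0.12 and 0.56, while all 4 were below 0 in wild-type cells (−0.84 to −0.23). P4hb, the founding isomerase PDI and a subunit of collagen prolyl hydroxylase, read 4.62, 4.95 and 5.07 in wild-type BMMCs and 4.85, 4.34, 5.16 and 3.95 in wild-type cocultured cells. These overlapped, with a difference of −0.31 ± 0.32 (adjusted p = 0.614). Pdia3, the partner of the lectin chaperones, differed by −0.37 ± 0.39 (adjusted p = 0.624). Txndc5 differed by −0.08 ± 0.29 in wild-type cells (adjusted p = 0.908) and passed in no comparison with or without the pair.

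With all arrays in wild-type cells, 1 sensor rose, 1 fell and 2 did not pass. Ern1 (chromosome 11, 106258948 to 106259007, mm9) read −1.81, −2.03 and −1.24 in wild-type BMMCs, −1.85, −1.53, −1.18 and −1.02 in knockout BMMCs, 0.75, −0.59, −0.48 and −0.61 in wild-type cocultured cells and −0.18, −1.01 and 0.46 in knockout cocultured cells. All cocultured arrays lay above all BMMC arrays of the same genotype, in knockout cells by a margin as narrow as −1.01 against −1.02. In wild-type cells Ern1 rose by 1.46 ± 0.41 (2.75-fold, adjusted p = 0.0345), and by 1.54 ± 0.41 without the pair (adjusted p = 0.0198). Leaving out single arrays gave adjusted p from 0.0213 to 0.138, and 4 of these 14 refits did not pass. It was also lost under the replicate block (adjusted p = 0.0607), slide as a fixed block (0.102), median scaling (0.0606), no filter on dim probes (0.0656) and normexp correction, where the difference was 0.66 (0.164, and 0.111 without flagged spots). In knockout cells the difference of 1.15 ± 0.41 did not pass (adjusted p = 0.0812).

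Eif2ak3 (chromosome 6, 70854787 to 70854846, mm9) read 0.93, 0.76 and 0.99 in wild-type BMMCs, 0.84, 0.62, 0.80 and 0.84 in knockout BMMCs, 0.68, −0.44, 0.06 and −0.54 in wild-type cocultured cells and 0.30, 0.48 and 0.74 in knockout cocultured cells. The wild-type groups did not overlap and the knockout groups did. Eif2ak3 fell in wild-type cells by 0.95 (SE 0.28, adjusted p = 0.0405), a call that was lost in 11 of 14 refits without 1 array (adjusted p up to 0.131) and kept without the pair (adjusted p = 0.0292). It was lost too under the replicate block (adjusted p = 0.0999), slide as a fixed block (0.0634), median scaling (0.0864), no filter on dim probes (0.1), the mean of its probes (0.201) and normexp correction (0.17, and 0.057 without flagged spots). In knockout cells it read −0.27 ± 0.28 (adjusted p = 0.573). Atf6 read 1.54, 1.84 and 2.15 in wild-type BMMCs and 2.31, 1.92, 2.79 and 1.80 in wild-type cocultured cells, a difference of 0.36 ± 0.29 (adjusted p = 0.485), and 0.74 ± 0.29 in knockout cells (adjusted p = 0.109). The other probe of Atf6 gave 0.715 ± 0.31 in wild-type and 1.278 ± 0.31 in knockout cells. With the mean of its probes Atf6 was called as higher in knockout coculture. Xbp1, whose spliced form is the factor downstream of Ern1, read 3.14, 3.03 and 3.10 in wild-type BMMCs and 2.60, 1.93, 3.52 and 1.64 in wild-type cocultured cells. Its difference was −0.67 ± 0.43 (adjusted p = 0.368), and −0.42 ± 0.43 in knockout cells (adjusted p = 0.562). The arrays do not separate spliced from unspliced Xbp1 as far as the files say.

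Within degradation, Herpud1 was the ER gene with the lowest p in both genotypes (chromosome 8, 96919117 to 96919176, mm9). It read 4.75, 5.08 and 4.86 in wild-type BMMCs, 4.32, 4.87, 4.84 and 4.16 in knockout BMMCs, 6.34, 5.90, 6.38 and 6.20 in wild-type cocultured cells and 6.84, 6.47 and 5.81 in knockout cocultured cells. Every cocultured array lay above every BMMC array. Herpud1 rose 2.47-fold in wild-type cells (SE 0.28 on the log2 scale, adjusted p = 0.00928) and 3.54-fold in knockout cells (adjusted p = 0.00152), and without the pair 2.37-fold (adjusted p = 0.00427) and 4.31-fold (adjusted p = 0.00041). Over the 14 refits without 1 array the adjusted p ran from 0.00337 to 0.0451 in wild-type and from 0.000934 to 0.0103 in knockout cells. The wild-type call was lost under median scaling (adjusted p = 0.0949, and 0.0507 without the pair). The ERSE-II letters shown above lie before its start site, and whether they bear on its level was not tested.

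Derl1 (chromosome 15, 57702221 to 57702280, mm9) read 4.06, 4.13 and 4.37 in wild-type BMMCs, 4.06, 4.15, 3.87 and 4.07 in knockout BMMCs, 5.19, 4.23, 5.44 and 4.12 in wild-type cocultured cells and 5.64, 5.30 and 5.44 in knockout cocultured cells. All knockout cocultured arrays were above all BMMC arrays, and the wild-type ones were split between 2 high and 2 within the BMMC range. Derl1 rose 2.68-fold in knockout cells (log2 1.42 ± 0.31, adjusted p = 0.01) and 2.70-fold without the pair (adjusted p = 0.00472). With all arrays this call was lost under median scaling (adjusted p = 0.0524) and normexp correction of all spots (0.169). In wild-type cells it differed by 0.56 ± 0.31 (adjusted p = 0.279). Vcp read 4.86, 4.65 and 4.66 in wild-type BMMCs, 4.83, 4.72, 4.40 and 4.95 in knockout BMMCs, 5.78, 4.87, 5.65 and 5.08 in wild-type cocultured cells and 5.86, 5.65 and 5.75 in knockout cocultured cells. The groups did not overlap in either genotype. Vcp rose 2.04-fold in knockout cells (1.03 ± 0.25, adjusted p = 0.0185), a call lost in 2 of 14 refits without 1 array and under the replicate block (adjusted p = 0.0509), no filter on dim probes (0.0537), quantile normalization (0.09), median scaling (0.111) and normexp correction (0.3). Its wild-type difference of 0.63 ± 0.25 did not pass (adjusted p = 0.132).

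Derl2, another Derlin, read 4.27, 4.20 and 4.33 in wild-type BMMCs, 4.18, 4.09, 4.13 and 3.60 in knockout BMMCs, 3.99, 3.77, 4.84 and 3.82 in wild-type cocultured cells and 5.24, 5.03 and 3.51 in knockout cocultured cells. With all arrays this probe differed by −0.16 and 0.59 (SE 0.39) and another probe of Derl2 by −0.49 and −0.48 (SE 0.23) in wild-type and knockout cells, so the probes disagreed in sign in knockout cells. Derl2 rose by 1.13 ± 0.20 in knockout cells without the pair by the first probe (adjusted p = 0.00275), as did Selk, a selenoprotein of the Derlin complex, by 1.09 ± 0.25 (adjusted p = 0.00839). Edem1, a lectin that hands misfolded glycoproteins to degradation, fell by 0.86 in wild-type cells without the pair (SE 0.17, adjusted p = 0.00503). With all arrays this Edem1 probe differed by −0.50 ± 0.39 in wild-type cells, and its other probes by 0.002 ± 0.47 and −0.218 ± 0.44. In knockout cells it differed by 0.093, and the others by 0.71 and 0.351. Sel1l and Syvn1, the adaptor and the ubiquitin ligase of the Hrd1 complex, differed by −0.09 ± 0.21 and −0.11 ± 0.24 in wild-type cells (adjusted p = 0.855 and 0.846). Without the pair Syvn1 turned to 0.08. Probes of Sel1l disagreed, the 2 others giving 1.17 ± 0.40 and 2.86 ± 0.55 in wild-type cells, and the mean of its probes gave 1.31 (adjusted p = 0.0171). Os9 and Edem2, lectins of the same pathway, did not pass in any comparison, with or without the pair. Derl3 levels ran from −5.75 to −3.69 and are given without a fold.

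In translocation, Sec61b, the small β subunit of the channel, read 6.04, 6.23 and 6.07 in wild-type BMMCs, 5.79, 5.85, 5.72 and 5.75 in knockout BMMCs, 5.83, 5.42, 6.63 and 5.63 in wild-type cocultured cells and 6.89, 6.93 and 5.35 in knockout cocultured cells. The same 3 cocultured arrays as for the chaperones were above every BMMC array. Sec61a1, the pore itself, ran from 5.05 to 5.41 in wild-type and 5.07 to 5.62 in knockout cocultured cells, within or near the BMMC range of 4.81 to 5.44. With all arrays 0 of 5 translocation genes passed in either genotype. Without the pair Sec61b, Sec62 and Sec63, the last of which brings BiP to the channel, rose in knockout cells by 1.13 (adjusted p = 0.00128), 0.81 (adjusted p = 0.0264) and 0.72 (adjusted p = 0.0305). Ssr1, a subunit of the translocon-associated complex, fell in wild-type cells by 0.70 (SE 0.23, adjusted p = 0.0493). Its 4 other probes gave −0.55 to −1.08 with all arrays, where its own difference was −0.52 ± 0.28 (adjusted p = 0.272).

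**Figure D3:**
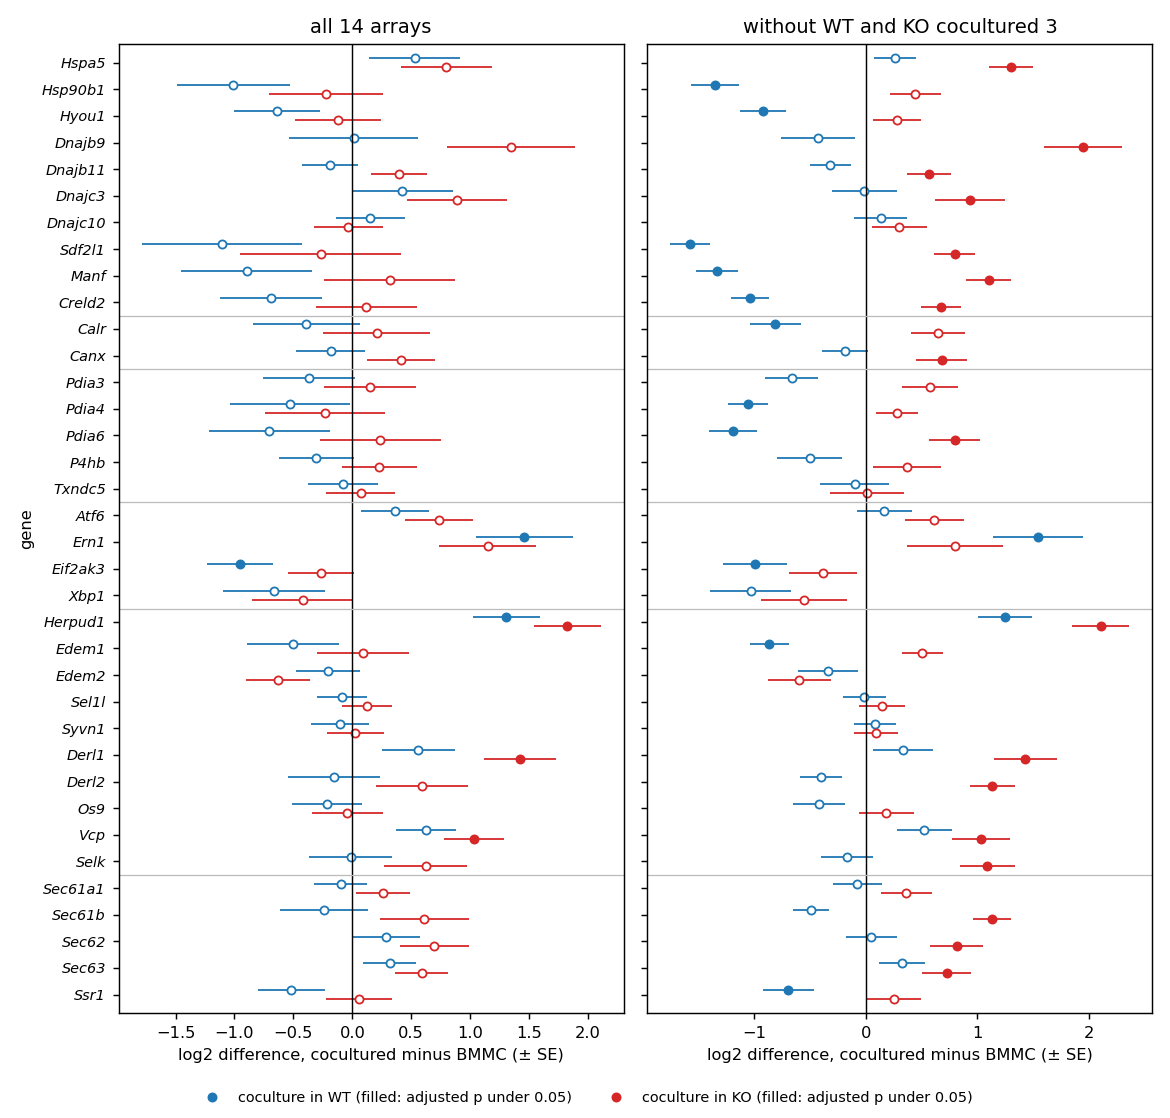
Points give the log2 difference of cocultured cells minus BMMCs with its SE for 36 ER genes (Derl3 is left out), in wild-type (blue) and knockout (red) cells, filled where the adjusted p is under 0.05, with all 14 arrays on the left and without wild-type and knockout cocultured 3 on the right. On the left 3 genes are filled in each genotype, and on the right 13 wild-type points (11 of them below 0) and 17 knockout points, all above 0, are filled. Horizontal scales differ between the panels.

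The knockout was compared with wild-type cells before coculture. Of 37 ER genes 0 were called, against 0.0% of all genes, and at an unadjusted p under 0.05 limma gave 0 of 37 ER genes and 169 of all genes (1.06%). The differences were small and leaned one way, with 31 of 37 below 0 and a median of −0.14, against −0.09 over all genes and 34.3% of all genes above 0. Under quantile normalization 14 were above 0, and with normexp correction without flagged spots 19 of 36 were above 0 and the median was 0.01. In 6 genes, Hyou1, Dnajb11, Sdf2l1, Manf, Derl2 and Sec61b, every knockout array was lower than every wild-type one, against 3.14% of all genes. The largest of these differences was −0.38 in Manf, which was −0.27, −0.22 and −0.34 within slides 1, 2 and 3. Its SE, pooled over the spread of all 4 groups, was 0.56 with all arrays and 0.18 without the pair, and it was not called in either fit (adjusted p = 1.0). Of the members with the lowest p, Sec61a1 differed by −0.30 ± 0.23, Herpud1 by −0.35 ± 0.28, Txndc5 by −0.32 ± 0.29 and Os9 by −0.31 ± 0.30, each at an adjusted p of 1.0.

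In cocultured cells 0 of 37 ER genes differed between genotypes with all arrays, against 0.0% of all genes, and at an unadjusted p under 0.05 limma gave 1 ER gene, Derl1, and 607 of all genes (3.79%). The median difference, knockout minus wild-type, was 0.37 with 31 of 37 above 0 (54.3% of all genes), and −0.14 with 10 of 37 above 0 under normexp correction of all spots. It ran from 0.19 without knockout cocultured 1 (25 of 37 above 0) to 0.58 without wild-type cocultured 3, with 0.22, 0.25 and 0.56 without wild-type cocultured 2, wild-type cocultured 4 and knockout cocultured 3. Derl1 differed by 0.72 ± 0.31, Eif2ak3 by 0.57 ± 0.28, Dnajb9 by 1.03 ± 0.54 and Canx by 0.54 ± 0.29, each at an adjusted p of 0.796. In the test of whether coculture acted differently in the 2 genotypes 0 of 37 passed, against 0.0% of all genes, and at an unadjusted p under 0.05 limma gave 0 ER genes and 131 of all genes (0.818%). The interaction was above 0 for 33 of 37 (60.5% of all genes). It was above 0 for 12 of 37 under normexp correction of all spots, and for 27 of 36 once flagged spots were left out. Here Dnajb9 read 1.33 ± 0.77, Derl1 0.86 ± 0.44, Eif2ak3 0.69 ± 0.39 and Dnajb11 0.58 ± 0.34, each at an adjusted p of 0.994.

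Without the slide 4 pair 18 of 37 ER genes were higher and 0 lower in knockout cocultured cells, against 25.3% of all genes called and 16.0% called higher. They were 8 of 10 chaperones, both lectins, 3 of 5 disulfide isomerases, 4 of 11 degradation genes, 1 of 5 translocation genes and 0 of 4 sensors. The largest differences were in Dnajb9 (2.07 ± 0.37, adjusted p = 0.00468), Manf (2.05 ± 0.21, adjusted p = 0.000837) and Sdf2l1 (2.05 ± 0.20, adjusted p = 0.000716), each over 4-fold at 4.19-fold, 4.15-fold and 4.14-fold. Under normexp correction of the same arrays 5 were higher and 1 lower, a smaller share than that of all genes called under that correction. Once flagged spots were left out 16 were higher and 0 lower. The interaction was called for 15, all above 0, against 12.7% of all genes called and 9.06% called above 0, and Manf read 2.43 ± 0.28 there (adjusted p = 0.00364). Of the 10 genes with ERSE or ERSE-II, 6 were higher in knockout cocultured cells without the pair, and of the 22 with neither, 9. Their median differences were 0.87 and 0.74, and with all arrays 0 genes of either set were called. Whether the element bears on these differences was not tested.

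Slides 2 and 4 each held 1 wild-type and 1 knockout cocultured array. On slide 2 the knockout array was higher for 27 of 37 ER genes, with a median difference of 0.39, while 53.2% of all genes were higher. On slide 4 it was lower for 29 of 36, with a median of −0.86, while 48.2% of all genes were higher. The genotype difference thus had opposite signs on the 2 slides, and with 1 array per group on each it has no test. Sdf2l1 differed by 1.75 on slide 2 and −3.02 on slide 4, and Manf by 1.75 and −2.04. The sign on slide 2 turned under normexp correction of all spots (9 of 37 higher, median −0.67) and not under median scaling (34 of 37), quantile normalization (24 of 37) or normexp correction without flagged spots (24 of 35).

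RNA typical of fibroblasts varied among the cocultured arrays too, and ran against the chaperone levels. Of 15 fibroblast markers 14 were tested, and their mean level was −6.04 to −4.46 in BMMCs, where 1 to 3 of 14 were well above background. It was 1.84, 3.80, −1.63 and 2.02 on wild-type cocultured arrays 1 to 4 and −1.85, −0.99 and 1.04 on knockout cocultured arrays 1 to 3, where 9 to 14 were well above background. The log2 of their summed level was −1.75 to 1.16 in BMMCs, 6.88, 8.76, 4.01 and 7.09 in wild-type and 3.86, 4.67 and 5.96 in knockout cocultured cells. The 3 cocultured arrays with the lowest fibroblast marker level were those with the highest chaperone levels. Of the 14 markers 12 rose in wild-type and 9 in knockout coculture, against 6.02% and 7.78% of all genes, and 0 differed between cocultured genotypes with all arrays, while 12 were lower in knockout cocultured cells without the slide 4 pair, against 9.25%. Their part in the differences above was not tested. All 12 mast cell markers were well above background on each array but knockout cocultured 2, where 10 were and Ms4a2 and Gata2 had no value. The mean of these markers was 4.97 to 6.45. Mcpt4, a mast cell protease among them, read 8.12, 6.84, 1.54 and 7.24 on wild-type cocultured 1 to 4 and 2.97, 4.5 and 6.27 on knockout cocultured 1 to 3, so it was lowest on the same 3 cocultured arrays. The mast cell markers did not move as one, and Fcer1a and Tpsb2 were highest on those 3 arrays. Fcer1a read 8.08, 7.81, 8.43 and 7.89 in wild-type and 9.17, 8.91 and 7.59 in knockout cocultured cells. Tpsb2 read 6.78, 6.43, 7.25 and 7.09 in wild-type and 7.57, 7.10 and 6.28 in knockout cocultured cells. The part of these markers was not tested either. In RNA from a mixed harvest, fewer cells of a type and less RNA per cell cannot be told apart.

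**Figure D4:**
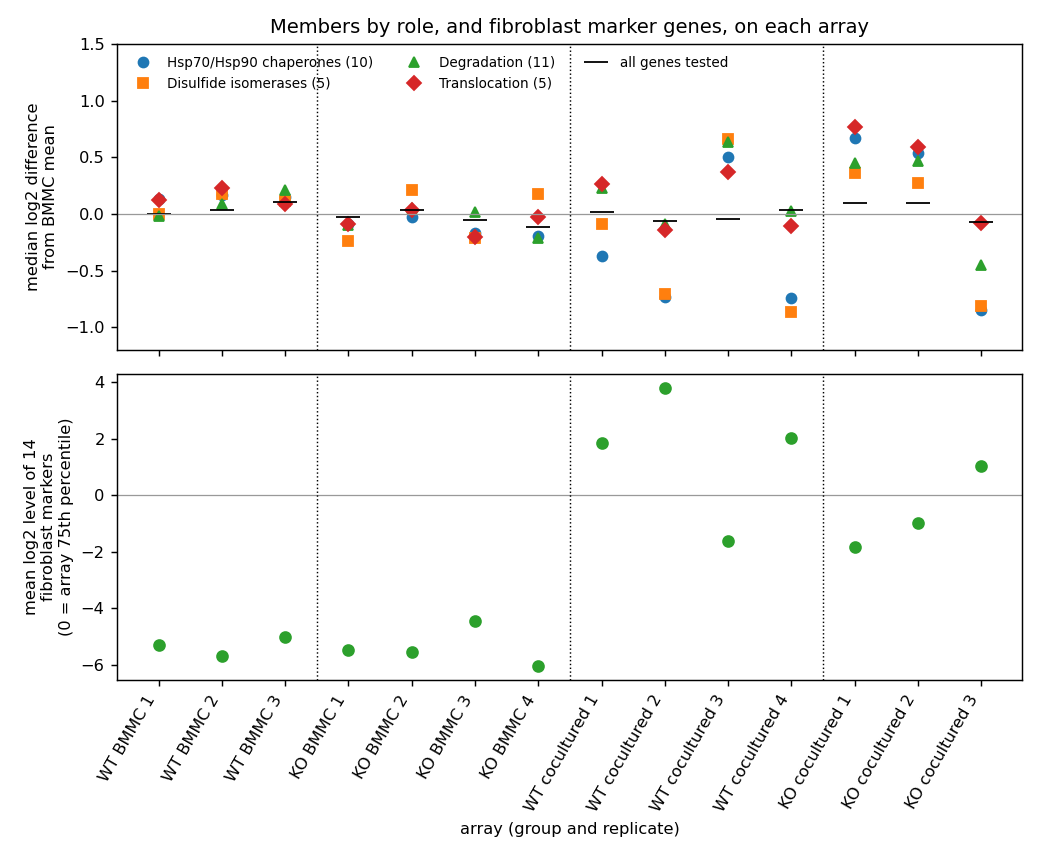
The upper panel gives, for each array, the median log2 difference from the BMMC mean over the chaperones, disulfide isomerases, degradation and translocation genes, with all genes tested as a bar, and the lower panel gives the mean log2 level of 14 fibroblast marker genes on the same arrays. The chaperone median was −0.37, −0.73, 0.50 and −0.74 on wild-type cocultured 1 to 4 and 0.67, 0.54 and −0.85 on knockout cocultured 1 to 3, and the arrays above 0 are the 3 cocultured arrays with the lowest marker level. The median over all members on knockout cocultured 2 falls below 0 under normexp correction of all spots, and is 0.34 once flagged spots are left out.

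Other genes of the same pathways, none of them on the list above, were counted by role. With all arrays 6.02% of all genes rose and 6.87% fell in wild-type cells, and 7.78% and 6.5% in knockout cells. Of 17 stress signalling genes tested 4 rose in wild-type and 5 in knockout cells, and 0 fell. Atf4, the factor translated when Eif2ak3 or a related kinase is active, rose by 1.24 ± 0.28 in wild-type cells (adjusted p = 0.0104) and 1.65 ± 0.28 in knockout cells (adjusted p = 0.00225), and its target Chac1 rose by 2.69 ± 0.66 (adjusted p = 0.0175) and 3.62 ± 0.66 (adjusted p = 0.00377). Atf3 and Traf2 rose in both genotypes and Ppp1r15a in knockout cells. Ddit3 (CHOP) differed by 0.47 ± 0.35 and 0.73 ± 0.35 and did not pass (adjusted p = 0.447 and 0.185). Of 24 folding and glycan control genes 3 rose (Fkbp7, Fkbp11 and Fkbp14) and 2 fell (Mogs and Txndc11) in wild-type cells, and 2 rose in knockout cells (Fkbp11 and Dnajc1). Of 18 degradation genes 0 passed in wild-type cells and Nfe2l1 rose in knockout cells by 0.97 ± 0.28 (adjusted p = 0.0388). Of 20 genes of translocation, signal peptidase and oligosaccharyl transfer 0 passed in wild-type cells and Spcs1 rose in knockout cells by 0.93 ± 0.27 (adjusted p = 0.0383). Without the pair, 8 of these 20 fell in wild-type cells (14% of all genes) and 11 rose in knockout cells (19.1%), and 14 were higher (16.0%) and 1 lower (Sec61a2, 9.25%) in knockout than in wild-type cocultured cells.

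Collagen chaperones and collagen-modifying enzymes of the ER were counted as a further list, and 7 of the 10 tested lay below 0 in each genotype. Of 10 tested, with a median difference of −0.13 in wild-type and −0.60 in knockout cells, Serpinh1 (Hsp47) and Fkbp10 rose in both genotypes, and P4ha1 and Crtap fell in wild-type cells. Serpinh1 was well above background on 0 BMMC arrays and on all cocultured ones, and was at least 305.0-fold higher in wild-type cocultured cells (adjusted p = 8.64e-07) and at least 134.0-fold higher in knockout cocultured cells (adjusted p = 2.09e-06). Each bound compares the cocultured mean with a mean over the BMMC arrays of that genotype, taken of each array's lowest signal well above background. Those lowest log2 levels ran from −4.19 to −3.86 in wild-type and from −4.53 to −2.75 in knockout BMMCs. Serpinh1 is also 1 of the fibroblast markers.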

How the data were processed

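Per the labels and the file headers, the authors hybridised 450 ng of labelled RNA per array and deposited spot intensity values made with Agilent Feature Extraction 9.5.1.1. From the log2 of the processed signal each array's 75th percentile was taken off, and flagged spots (74 to 326 per array) were left out. A probe was kept if 3 or more arrays had it well above background and each group had 2 or more values (23584 probes, 16012 genes), and each gene was represented by its brightest probe on average. This kept 77 of the list's 79 probes. Probe positions are those on mm9 in the files.

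limma 3.58.1 in R 4.3.3 fitted the 4 groups together with 5 contrasts, two-sided, with Benjamini-Hochberg adjustment over all genes and calls at an adjusted p under 0.05. On simulated data for coculture of wild-type cells (15736 genes) 7% of genes changed by 1 on the log2 scale were called, and 58% of those changed by 2. Wild-type and knockout BMMC arrays of equal number deviated together (r = 0.197, 0.497 and 0.491 across genes). These arrays also share a slide by number, so number and slide cannot be told apart. Cocultured arrays of equal number gave r = −0.429, −0.15 and −0.544. BMMC and cocultured arrays of equal number and genotype gave r from −0.062 to 0.12. Whether the numbers pair arrays is thus not known. Named with full values were the called members, the 4 others with the lowest p in each comparison and 12 fixed members in coculture of wild-type cells. Members described without the slide 4 pair were named after their values were seen. Members and lists were chosen with earlier results of these data known.

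Promoter sequences are from RefSeq, GRCm38.p6. Macrophage (6 tested), plasma and B cell (2) and neutrophil (2) markers were also counted: in wild-type coculture 2, 1 and 0 rose and 1, 0 and 0 fell, and in knockout coculture 2, 1 and 0 rose and 0 fell.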

Additional observations from a re-analysis of the deposited data

Results flagged for a closer look

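In 8 of 72 groups of 4 arrays an ER gene had 1 array far from the other 3 by Dixon's criterion (0.829 for 4 values), where chance flags about 1 group in 20. In 5 of these the array was wild-type cocultured 3, which was the highest: Hspa5 read 7.23 against 6.05 to 6.23 on the others, Hsp90b1 6.62 against 5.20 to 5.37, Creld2 4.94 against 3.44 to 3.63, Pdia4 3.02 against 0.87 to 0.94 and Edem1 4.21 against 2.64 to 2.85. Ern1 was highest on wild-type cocultured 1, at 0.75 against −0.61 to −0.48. Among knockout BMMCs, Eif2ak3 was lowest on array 2, at 0.62 against 0.80 to 0.84, and Derl2 on array 4, at 3.60 against 4.09 to 4.18. Groups of 3 arrays, which include knockout cocultured cells, were not examined in this way.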

How the results depend on the processing

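Counts of ER genes called, for coculture in wild-type and in knockout cells, were 0 and 1 with median scaling, 1 and 1 with normexp background, 1 and 2 with normexp without flagged spots, 1 and 2 with no filter on dim probes, 1 and 3 with slide as a fixed block, 4 and 5 with the mean of a gene's probes, against 3 and 3. Over all genes normexp gave 895 and 896 against 2064 and 2286, and in knockout cells median scaling gave 1392 and no filter 1356. With the replicate block, which pairs arrays by number, 1 and 2 ER genes were called, Herpud1 alone in wild-type and Herpud1 and Derl1 in knockout cells, and 1383 and 1231 genes in all. It changed no call between genotypes. Between BMMCs quantile normalization and a stricter filter each gave 1 gene of all.

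Without the slide 4 pair, ER genes called were 13 in wild-type and 17 in knockout coculture, 18 between cocultured genotypes and 15 for the interaction. They were 11, 13, 25 and 15 with median scaling too, 13, 5, 12 and 9 with quantile normalization, 5, 5, 6 and 0 with normexp, and 12, 12, 16 and 11 with normexp without flagged spots. Over all genes the 4 counts were 3786, 4952, 4049 and 2037, then 3730, 4077, 5338 and 2606, then 3881, 3595, 2853 and 955 (2 between BMMCs), then 1620, 5236, 3556 and 49, and 3298, 4354, 2778 and 1778. With normexp, ER genes called in knockout coculture thus fell from 17 to 5 while all genes called went from 4952 to 5236. With quantile normalization ER genes fell from 17 to 5 there and all genes from 4952 to 3595. In both settings ER genes were called less often than all genes in that comparison. The combinations with the pair left out and normexp without flagged spots were chosen after seeing the data. Normexp took −237.7 units as background on knockout cocultured 2 and −44.7 on knockout BMMC 2, where 7 and 3 flagged spots lay over 50 units below background, and −2.6 to −4.9 on all arrays without flagged spots. That version also leaves out spots flagged for their local background, which were kept elsewhere, and left Herpud1 untested for that reason.

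Leaving out 1 array at a time gave 1 to 3 ER genes in wild-type and 2 to 9 in knockout coculture (9 without knockout cocultured 3), and 0 to 0 in the other comparisons. The count of 1 came without each of the 3 wild-type BMMC arrays. Over all genes it gave 1119 to 2684 (1119 to 1200 without a wild-type BMMC array), 1069 to 3143 (1069 without knockout cocultured 1, 1330 and 1328 without knockout BMMC 1 and 2), 0 to 2 between BMMCs, 0 to 0 between cocultured genotypes and 0 to 0 for the interaction. Median scaling moved the median of all genes most between cocultured genotypes, from 0.05 to 0.31, and from 0.06 to 0.62 without the pair.

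Directions reversed as follows, none of them past the threshold except Sel1l with the mean of its probes (1.31). In wild-type coculture with normexp Canx gave 0.185 and Syvn1 0.012, and without flagged spots Sel1l 0.002 and Syvn1 0.014. Slide as a fixed block gave Syvn1 0.021. Without the pair Syvn1 gave 0.08, and over the refits without 1 array it ran from −0.256 to 0.08 (above 0 without wild-type cocultured 3). Without the pair, median scaling gave Hspa5 −0.013 and Atf6 −0.105, quantile normalization Sel1l 0.052 and Syvn1 0.136, normexp Sel1l 0.051 and Syvn1 0.199, and normexp without flagged spots Sel1l 0.053 and Syvn1 0.20. In knockout coculture the pair left out with normexp gave Sec63 −0.139 and Atf6 −0.091. Between cocultured genotypes Canx gave −0.282 with normexp and −0.168 with the pair left out as well, and for the interaction Dnajb11 gave −0.094 and −0.081. Except where stated, the cause was not tested. Signal over background limits Derl3.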

Other observations

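Probes of 1 gene disagreed in several cases. For Sel1l the probe with the highest mean differed by −0.09 in wild-type and 0.12 in knockout coculture, and the other probes by 1.17 and 1.24 and by 2.86 and 2.57. For Os9 a probe well above background on 8 arrays gave −1.16 ± 0.38 and −1.35 ± 0.38, and one above background on all 14 gave 0.08 ± 0.40 and 0.15 ± 0.40. The first of these lies on the plus strand and the gene's other probes on the minus strand. Whether it reads the Os9 transcript was not tested. For Sec63 the 3 further probes ran from −0.41 to 0.38 in wild-type and −0.43 to 0.57 in knockout coculture.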
